A study of Mus musculus with 39 samples.

Results

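The combination tumours are the 10 libraries, of 39 in the series, whose labels give anti-PD-1 plus EPAT as the treatment: 5 taken on day 2 and 5 on day 5. The libraries were grouped by these labels alone, and no measured value entered the grouping. The comparison itself was chosen with earlier results of these data known. All groups were tumours of a Braf-mutated mouse melanoma in C57BL/6 mice, sampled as bulk tissue. Dosing started 7 days after the tumour cells were injected. Combination animals were given EPAT, a name for drugs that block EP2 and EP4, both receptors of prostaglandin E2 (30 mpk from 3 mg/mL, 200 µl a dose, dosed bidaily), together with anti-PD-1 antibody at 200 µg a dose every few days. The animals of the other groups were given the EPAT vehicle of DMSO, PEG400 and water, EPAT alone or anti-PD-1 alone on the same 2 days, with 5 libraries each and 4 for anti-PD-1 on day 2. The labels give no age, no sex and no name of the tumour line. The labels do not say that each library came from its own animal, so every p-value measures the spread between these samples. The extraction text names day 4, which is neither sampling day, and the grouping follows the time point of each library.

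Anti-PD-1 blocks PD-1, an inhibitory receptor on activated T cells. Prostaglandin E2 acts through EP2 and EP4 to raise cyclic AMP, which dampens T cells and natural killer cells and alters myeloid cells. Glucocorticoids, the adrenal steroid hormones, act through a nuclear receptor that binds DNA and switches on a recurrent group of genes in most cell types, among them Fkbp5, Tsc22d3, Per1 and Klf9. Comparing the combination tumours on 2 days asks how their RNA moved over the course of treatment.

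Total counts of the 10 libraries ran from 9177143 to 13999081. Levels are given in CPM, each count as a share of its library, adjusted by TMM, a factor that evens out library composition. The kit reads tags near the 3' end of transcripts, so levels of different genes are not compared. Fold changes are log2 values of day 5 over day 2 with their SE, from edgeR's quasi-likelihood test on 15070 genes, and a gene passed at a Benjamini-Hochberg adjusted p under 0.05. Day 2 replicate 2 stood apart, and values without it are given beside the results that it changed most. Its T cell list averaged 0.169 log2 CPM and its hypoxia list 6.94, the lowest and the highest of all 39 libraries, and its median correlation with the other combination libraries was 0.934. Day 5 replicate 1 had the lowest such correlation, 0.929, and the others lay between 0.95 and 0.971. Day 5 replicate 3 held 33.7 CPM of Krt5 and 58.9 CPM of Krt14, both keratins of skin, against at most 0.166 and 0.871 CPM in the other 9 libraries. Lung transcripts were present in 3 of 5 libraries on day 2 and 2 of 5 on day 5. Of the melanocyte list of 12 genes, Tyr, Tyrp1 and Slc45a2 had no count in any of the 10 libraries, Mlana and Dct stayed at or below 0.164 CPM, and Mitf, the lineage factor, lay between 45.1 and 82.4 CPM. Ednrb, an endothelin receptor that other cell types also express, lay between 11.2 and 45.8 CPM, Sox10, a neural crest factor, reached 1.74 CPM, and the other 4 genes of the list stayed at or below 0.657 CPM.

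From day 2 to day 5, Fkbp5 and Klf9 fell, and no other gene passed the test. Both are induced by glucocorticoids. They were 2 of 15070 genes (0.0133%), none of them higher. The median log2 fold change over all genes was 0.009. A further 7 genes had an adjusted p under 0.10: Cx3cr1, Vps41, Dact3 and Stom with higher values on day 5, and Adamts1, Per1 and Tmem198b with lower ones. At an unadjusted p under 0.05 there were 1762 genes (11.7%), 723 higher (4.8%) and 1039 lower (6.89%). In 315 genes (2.09%) the 5 libraries of one day did not overlap those of the other, 174 with day 5 below (1.15%) and 141 with day 5 above (0.936%). With day 2 replicate 2 left out, 1 of 15040 genes passed (0.00665%), which was Fkbp5, and at an unadjusted p under 0.05 there were 1528 genes (10.2%), 745 higher (4.95%) and 783 lower (5.21%). The number of calls was 0 when edgeR was fitted to the 10 combination libraries alone, and 34 with DESeq2 on all libraries, 13 higher and 21 lower.

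**Figure D1:**
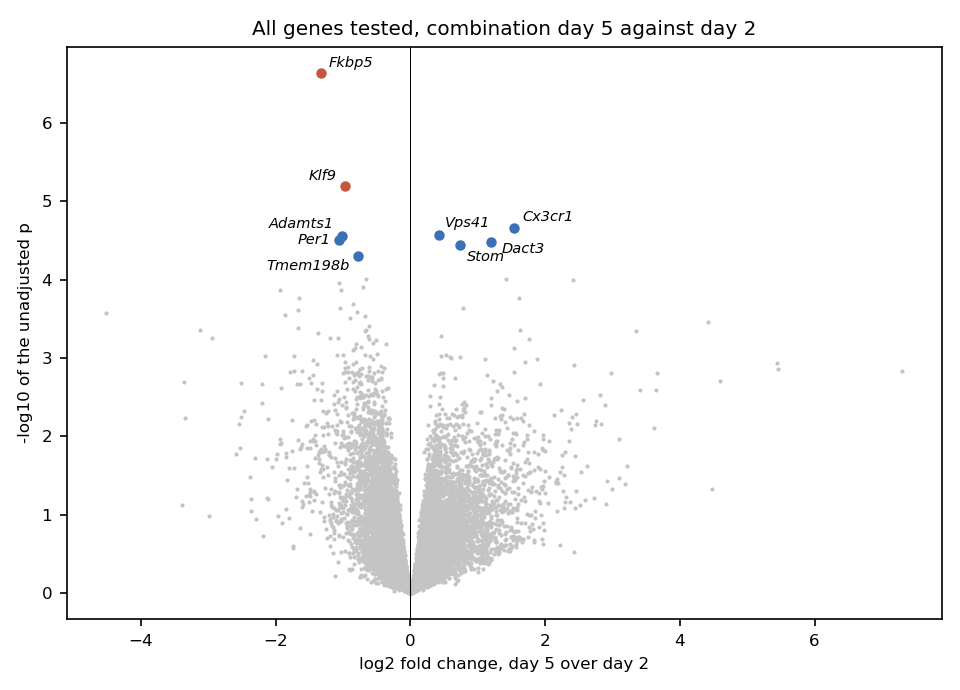
Each point is 1 of 15070 genes, with the log2 fold change of day 5 over day 2 in the combination tumours on the x axis and -log10 of the unadjusted p on the y axis. Red points are Fkbp5 and Klf9, which passed, and blue points are the 7 genes with an adjusted p between 0.05 and 0.10.

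Fkbp5, which encodes a co-chaperone that lowers the hormone affinity of the glucocorticoid receptor, lies at chr17:28399094-28517527 on the minus strand (GRCm38, GENCODE vM21, protein coding). It stood at 74.2, 60.3, 76.8, 53.3 and 50.9 CPM in day 2 replicates 1 to 5 and at 15.2, 28.5, 27.5, 26.2 and 27.96 CPM in day 5 replicates 1 to 5. Every day 5 library lay below every day 2 library, and the 5 day 5 libraries were the 5 lowest of all 39 for this gene. The log2 fold change was -1.33 ± 0.21 (adjusted p = 0.00346, edgeR) and -1.35 without day 2 replicate 2 (adjusted p = 0.00597, edgeR). Klf9, a Krüppel-like transcription factor at chr19:23141226-23168134 on the plus strand, stood at 169.8, 250.3, 186.7, 166.4 and 137.5 CPM on day 2. On day 5 it stood at 52.7, 118.6, 89.4, 83.7 and 119.6 CPM, again without overlap. Its log2 fold change was -0.97 ± 0.18 (adjusted p = 0.0483, edgeR). Without day 2 replicate 2, the highest Klf9 library, it was -0.83 and did not pass (adjusted p = 0.166, edgeR). Leaving out each library in turn, Fkbp5 passed in all 10 fits and Klf9 in 3, those without day 2 replicate 5, day 5 replicate 2 or day 5 replicate 5.

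Per1, a repressor of the circadian clock that is also a direct target of the glucocorticoid receptor, lies at chr11:69095217-69109960. It read 52.3, 36.4, 46.0, 49.3 and 35.2 CPM on day 2 and 18.5, 20.9, 22.4, 21.3 and 22.02 CPM on day 5. The day 5 libraries were tightly grouped below all day 2 libraries, with a log2 fold change of -1.06 ± 0.22 that did not pass (adjusted p = 0.0668, edgeR). Tsc22d3 encodes GILZ, an anti-inflammatory leucine zipper protein. Its levels were 107.4, 147.0, 67.9, 74.2 and 78.4 CPM on day 2 and 24.5, 52.8, 62.7, 48.3 and 35.9 CPM on day 5, also without overlap (log2 fold change -1.08 ± 0.28, adjusted p = 0.2, edgeR). Zbtb16, a zinc finger factor, had a fold change of -1.84 ± 0.74 that rested on 34.7 CPM in day 2 replicate 2, against 1.91 to 4.81 CPM in the other day 2 libraries and 1.02 to 5.09 CPM on day 5. Without that library it was -0.32.

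The glucocorticoid-induced list holds 10 genes, all above the filter on low counts. The choice to give it whole was made after its values were seen. Of these genes 9 were lower on day 5 and 1 was higher. In the list 2 passed, 5 had an unadjusted p under 0.05, all lower, and 4 had all day 5 libraries below day 2. The same shares over all genes were 0.0133%, 6.89% and 1.15%. The list was itself chosen with earlier results of these data known, so these shares do not test it. The median log2 fold change of the list was -0.96 with all libraries and -0.77 without day 2 replicate 2, against 0.009 over all genes. Dusp1, a phosphatase of MAP kinases, had a fold change of -0.64 ± 0.33, and Lcn2, an iron-binding secreted protein, one of -0.95 ± 0.61. Values near 0 belonged to Sgk1, a kinase of ion transport (-0.18 ± 0.25), Errfi1, an inhibitor of the EGF receptor (-0.10 ± 0.30), and Cdkn1a, the cell cycle inhibitor p21 (0.03 ± 0.14). Members thus differed widely among themselves. The list's mean log2 CPM was 5.89, 6.28, 5.70, 5.82 and 6.09 in the day 2 libraries and 4.83, 5.43, 5.22, 5.25 and 5.28 on day 5. The ranges of the days did not overlap. Nr3c1, the gene of the glucocorticoid receptor, was looked up after these values were seen and stood at 134.6 ± 15.6 CPM (SD, n = 5) on day 2 and 161.2 ± 34.1 CPM on day 5 (adjusted p = 0.469, edgeR). In bulk tissue, fewer cells of a type that expresses a gene and less RNA per cell cannot be told apart.

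**Figure D2:**
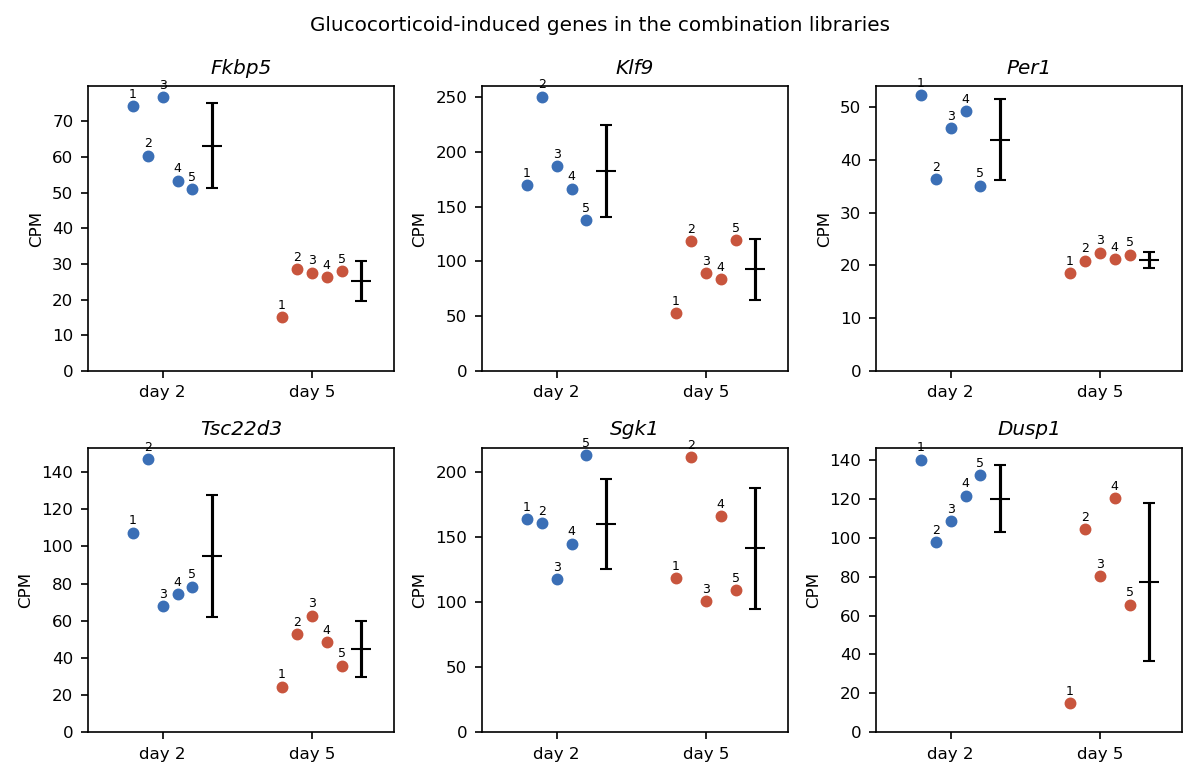
Levels in CPM (y axis, from 0) of 6 glucocorticoid-induced genes in the 5 day 2 and 5 day 5 combination libraries (x axis), each point labelled with its replicate number and the bar giving mean ± SD. Fkbp5, Klf9, Per1 and Tsc22d3 do not overlap between days, and Sgk1 and Dusp1 do. Zbtb16, Lcn2, Errfi1 and Cdkn1a, the rest of the list, are not drawn and overlap between days.

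The sequences just before the RefSeq start sites of the called genes are shown because both genes are counted among direct glucocorticoid targets. RefSeq (GRCm38.p6) held windows for 9 of the 10 list genes, 19 windows in all, and each was read over the 250 bases before the start. Capitals mark the E-box CACGTG, the letters bound by clock and related factors, and the cyclic AMP response half-site TGACG, searched on both strands. The Fkbp5 window, chr17:28486150-28486399 on the minus strand, lies inside the gene's annotated span and overlaps no annotated exon, and the Klf9 window, chr19:23140976-23141225 on the plus strand, ends directly before its gene.
Fkbp5: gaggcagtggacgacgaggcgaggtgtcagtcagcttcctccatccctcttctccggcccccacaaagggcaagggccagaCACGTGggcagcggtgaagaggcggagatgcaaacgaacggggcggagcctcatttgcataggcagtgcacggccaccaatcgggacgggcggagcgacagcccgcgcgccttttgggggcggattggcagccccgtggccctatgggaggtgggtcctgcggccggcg
Klf9: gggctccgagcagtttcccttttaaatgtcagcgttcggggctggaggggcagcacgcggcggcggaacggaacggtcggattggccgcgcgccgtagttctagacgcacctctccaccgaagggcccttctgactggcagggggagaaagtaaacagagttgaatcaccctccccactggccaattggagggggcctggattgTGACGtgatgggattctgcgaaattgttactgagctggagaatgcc
The Fkbp5 window holds an E-box that begins 169 bases before the start, and the Klf9 window a TGACG that begins 46 bases before it. An E-box was found in 4 of the 19 windows (of Dusp1, Fkbp5, Per1 and Sgk1) and in 6.02% of 32851 RefSeq promoter windows. TGACG was found in 7 of the 19 windows, from 6 genes, and in 17.8% of all windows. The receptor's half-site AGAACA was in neither window shown. It was in 4 of the 19 windows, of Sgk1 and Tsc22d3, and in 16.1% of all windows. The full palindromic glucocorticoid response element, which contains the half-site, was in 1 window, of Sgk1, and in 0.00913% of all windows. These matches describe letters near the start only.

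Fkbp5 and Klf9 passed in none of the other arms, and by edgeR their change over time was not shown to differ between arms. Each arm is compared below with its own day 2 libraries, and no library is shared between the arms. For Fkbp5, mean levels on day 2 and day 5 were 61.2 ± 9.06 and 57.0 ± 12.9 CPM in vehicle, 50.2 ± 5.11 (n = 4) and 54.3 ± 7.34 CPM under anti-PD-1, and 62.1 ± 22.8 and 41.6 ± 10.6 CPM under EPAT, against 63.1 ± 11.9 and 25.1 ± 5.61 CPM in the combination (SD, n = 5). The combination was thus level with the other arms on day 2 and lowest on day 5, and the lowest of the 29 other libraries read 31.4 CPM. Its change differed from that in anti-PD-1 tumours by -1.44 ± 0.30 (adjusted p = 0.217, edgeR), from vehicle by -1.23 ± 0.29 (adjusted p = 0.423) and from EPAT by -0.75 ± 0.29 (adjusted p = 0.446). Mean Klf9 on day 2 was 182.1 CPM in the combination, 168.4 in vehicle, 124.7 under anti-PD-1 and 122.6 CPM under EPAT. On day 5 it was 92.8, 157.1, 159.9 and 151.6 CPM in the same order. For Klf9 the differences were -1.33 ± 0.27 against anti-PD-1 (adjusted p = 0.217, edgeR), -1.28 ± 0.26 against EPAT (adjusted p = 0.139) and -0.87 ± 0.26 against vehicle (adjusted p = 0.999). For Per1 they were -1.49 ± 0.32, -1.31 ± 0.31 and -0.64 ± 0.31 in the same order. The list median over time was -0.015 in vehicle, 0.23 under anti-PD-1 and 0.06 under EPAT.

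No gene passed the edgeR test of a difference in the day 5 minus day 2 change between the combination and another arm: 0 of 15070 against vehicle (0%; 528 at an unadjusted p under 0.05, smallest adjusted p 0.129), 0 against anti-PD-1 (0%; 975, smallest 0.217) and 0 against EPAT (0%; 1286, smallest 0.139). Other tools gave more. DESeq2 called 3 genes against vehicle, 3 against anti-PD-1 and 17 against EPAT, and limma-voom with sample quality weights called 0, 10 and 4. The 3 genes that DESeq2 called against anti-PD-1 were Klf9 (-1.33, adjusted p = 0.0165), Fkbp5 (-1.44, adjusted p = 0.0177) and Per1 (-1.48, adjusted p = 0.0334). Those it called against vehicle were Krt5 (32.97), Igfn1 (-17.99) and Dsp (9.50). In the combination, Krt5 and Dsp stood at 33.7 and 18.15 CPM in day 5 replicate 3 and at most 0.166 and 0.499 CPM elsewhere. In vehicle on day 2 they averaged 5.18 ± 9.29 and 6.27 ± 9.95 CPM (SD), so these calls rest on uneven libraries. The 17 that DESeq2 called against EPAT held Klf9 but neither Fkbp5 nor Per1. The 10 genes of limma-voom against anti-PD-1 held Klf9 and Per1 but not Fkbp5. By edgeR the smallest p against EPAT was that of Fosl2, a Fos family factor (-1.21 ± 0.24, adjusted p = 0.139), and Cebpd, a C/EBP transcription factor, differed by -1.53 ± 0.35 (adjusted p = 0.266). Within the single arms edgeR called 0 genes between days in vehicle, in anti-PD-1 and in EPAT tumours (0% each), with 828, 1052 and 1090 genes at an unadjusted p under 0.05. DESeq2 called 10, 12 and 6, and limma-voom with sample quality weights 0, 2 and, for EPAT day 5 vs day 2, 1168.

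**Figure D3:**
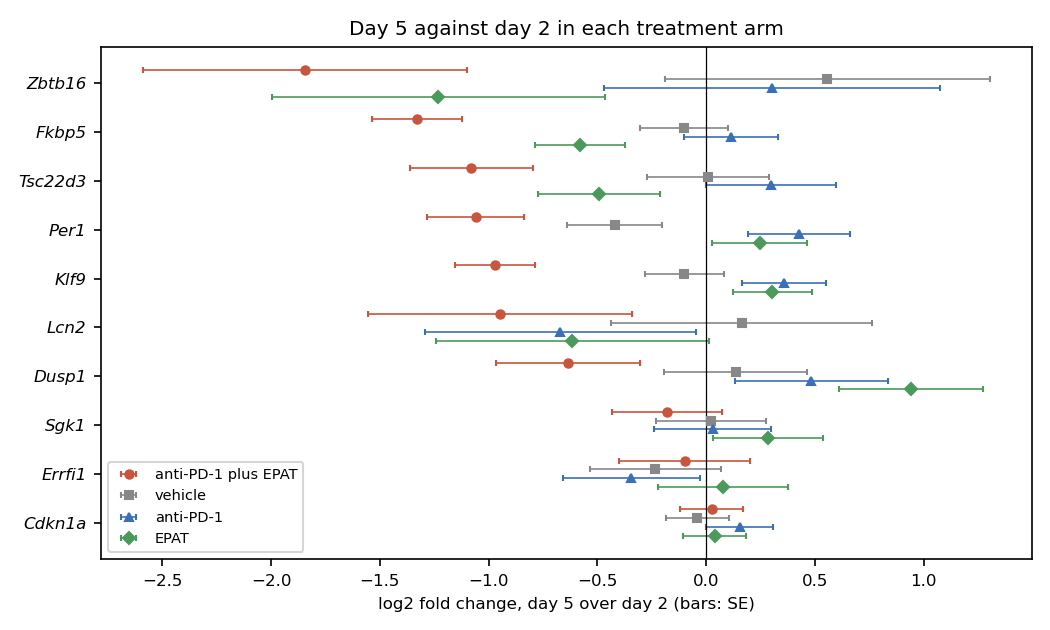
Log2 fold change of day 5 over day 2 (x axis, bars give the SE) for the 10 glucocorticoid-induced genes (y axis) in each treatment arm, from 1 fit to all 39 libraries. The combination lies at -1.33 for Fkbp5, -1.08 for Tsc22d3, -1.06 for Per1 and -0.97 for Klf9, left of the other arms for these genes.

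Genes outside the glucocorticoid list stood next in rank, none passing with edgeR. Adamts1, a secreted protease of the extracellular matrix, read 94.1, 68.9, 107.2, 82.9 and 65.6 CPM on day 2 and 27.4, 40.1, 41.5, 39.1 and 59.1 CPM on day 5 (log2 fold change -1.02 ± 0.21, adjusted p = 0.0668, edgeR), with no overlap. Vps41, a subunit of a lysosomal tethering complex, differed by only 0.42 ± 0.09, but its libraries were closely spaced: 68.6 to 83.8 CPM on day 2 and 93.3 to 110.2 CPM on day 5. Cx3cr1, the fractalkine receptor of monocytes and macrophages, read 32.4, 17.2, 31.2, 33.8 and 23.1 CPM on day 2 and 144.1, 26.1, 92.5, 84.2 and 55.6 CPM on day 5 (1.54 ± 0.32). Day 5 replicate 2 overlapped the day 2 range and the other 4 lay above it. Left out in turn, day 5 replicate 2 and day 5 replicate 5 each brought Cx3cr1 past the threshold (adjusted p = 0.00481 and 0.0328, edgeR).

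Dact3, an intracellular antagonist of Wnt signalling, read 4.41 to 6.88 CPM on day 2 and 8.38 to 16.9 CPM on day 5, and Stom, a membrane scaffold protein, 15.8 to 20.3 and 24.2 to 42.5 CPM. Cxcl14, a chemokine of stromal cells, read 17.9 to 41.8 CPM on day 2 and 51.2 to 114.2 CPM on day 5 (1.41 ± 0.32). Sfrp1, a secreted Wnt inhibitor, read 19.99 to 88.5 and 162.2 to 409.5 CPM (2.41 ± 0.55). None of these 4 overlapped between days. In vehicle tumours the day 5 minus day 2 values were 1.47 for Cxcl14, 2.57 for Sfrp1, 0.63 for Stom (0.74 in the combination) and 0.70 for Dact3 (1.19 in the combination). In the same order they were -0.184, 1.31, -0.011 and 0.673 under anti-PD-1, and -0.015, 1.292, 0.079 and 0.295 under EPAT. Mean Cxcl14 on day 2 was 31.7 CPM in the combination, against 48.25, 88.25 and 86.0 CPM in vehicle, anti-PD-1 and EPAT tumours. On day 5 it was 84.4 CPM, against 133.5, 77.7 and 85.1 CPM. The remaining genes with the smallest p were Got1, the cytosolic aspartate aminotransferase (-0.66 ± 0.15), Ryk, a Wnt receptor (-0.71 ± 0.16), Tmem198b (-0.78 ± 0.17), Ak4, a mitochondrial adenylate kinase (-1.66 ± 0.39, and -1.06 without day 2 replicate 2), Gria3, a glutamate receptor subunit (1.61 ± 0.38), Tnip1, an inhibitor of NF-κB signalling (0.79 ± 0.19, and 0.67 in vehicle), C1qtnf3 (4.42 ± 1.12) and Osbp2 (1.63 ± 0.42). Tnip1 stood at 0.09 under anti-PD-1 and 0.138 under EPAT.

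Clock genes were divided. Of 15 tested of 16 listed, 8 were lower and 7 higher, with a median of -0.04. At an unadjusted p under 0.05 there were 4, all lower: Per1, Per2, Bhlhe40 and Ciart, all repressors of the clock. Among all genes 6.89% were lower at that p. Per2 read 18.1, 43.2, 21.5, 21.5 and 19.7 CPM on day 2 and 3.23, 14.1, 15.4, 14.9 and 16.3 CPM on day 5 (-0.95 ± 0.31, adjusted p = 0.3, edgeR). Bhlhe40 read 36.9, 68.3, 36.2, 38.5 and 43.6 CPM and then 18.5, 27.5, 21.02, 32.2 and 28.8 CPM (-0.80 ± 0.23, adjusted p = 0.229). Neither overlapped between days, and in both day 2 replicate 2 was the highest library. Ciart stood at -1.47 ± 0.44 with that library and at -0.86 without it. The hour of sampling is not given in the labels. Dbp and Tef, output genes of the clock that swing widely over the day, had fold changes of 0.04 and 0.12. Nr1d1, also a repressor of the clock, had one of 0.22. Dbp, Nr1d1 and Tef were looked up after these values were seen, and any part of the hour of sampling was not tested.

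Most genes of hypoxia and glycolysis had lower values on day 5, by an amount that depended on 1 library. Of 20 genes 19 were lower, none passed, and 13 had an unadjusted p under 0.05, with a median of -0.75. The share of all genes lower at that p was 6.89%. Without day 2 replicate 2 the list median was -0.26, 17 were lower and 2 had an unadjusted p under 0.05. The share of all genes was then 5.21%. Ero1l, an oxidase of the endoplasmic reticulum, read 40.8, 450.0, 58.1, 47.0 and 107.3 CPM on day 2 and 63.7, 56.1, 22.01, 33.8 and 44.8 CPM on day 5, so its fold change of -1.67 ± 0.43 became -0.51 without that library. Ndrg1, a stress gene induced by low oxygen, read 122.3, 401.2, 128.9, 125.0 and 147.8 CPM and then 74.3, 98.4, 101.3, 68.2 and 113.1 CPM. It did not overlap between days and its fold change went from -1.02 ± 0.24 to -0.52 without replicate 2. Mt2, a metallothionein induced by zinc and by glucocorticoids, read 1618, 3122, 1932, 1380 and 1432 CPM on day 2 and 838, 1424, 562, 694 and 1034 CPM on day 5 (-1.06 ± 0.24, and -0.80 without replicate 2). Mean Mt2 on day 2 was 1897 CPM, against 781, 994 and 880 CPM in vehicle, anti-PD-1 and EPAT tumours. On day 5 it was 910 CPM, against 1016, 826 and 1065 CPM. Mean Ndrg1 was 185 CPM on day 2, against 81.4, 91.3 and 77.0 CPM in the same arms. On day 5 it was 91.0 CPM, against 105.6, 112.9 and 111.7 CPM. Day 2 replicate 2 also had the highest level of collagen and matrix genes on day 2.

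**Figure D4:**
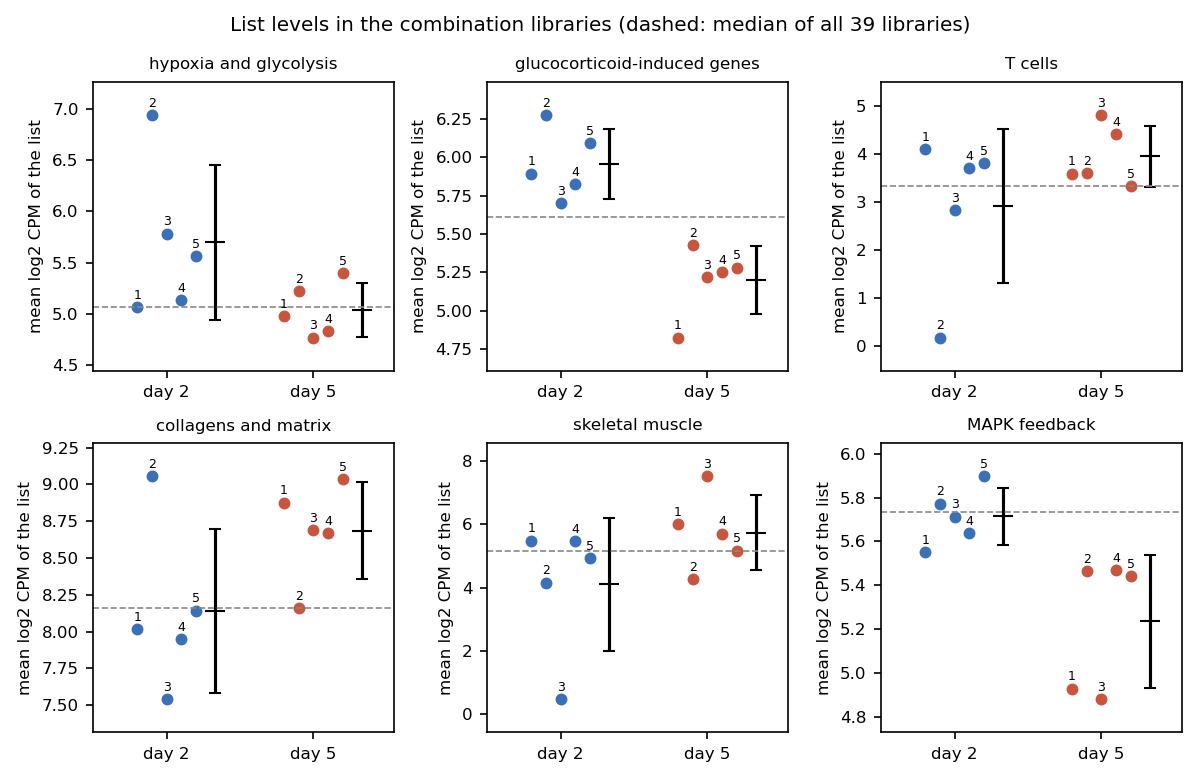
Mean log2 CPM of 6 gene lists (y axis) in the day 2 and day 5 combination libraries (x axis), with replicate numbers, mean ± SD, and a dashed line at the median of all 39 libraries. Day 2 replicate 2 stands alone in the hypoxia (6.94) and T cell (0.169) lists, while the glucocorticoid-induced and MAPK feedback lists separate the days in all libraries.

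Feedback genes of the MAP kinase pathway, which oncogenic Braf drives, were lower on day 5 in 11 of 14 cases. None passed, 5 had an unadjusted p under 0.05, all lower, and 2 did not overlap between days. Of all genes 6.89% were lower at that p, and 1.15% had every day 5 library below day 2. The list median was -0.45, and -0.51 without day 2 replicate 2. In vehicle, anti-PD-1 and EPAT tumours it was -0.15, -0.05 and 0.11. Dusp6, the ERK phosphatase, read 285.6, 298.2, 356.1, 334.4 and 260.0 CPM on day 2 and 32.4, 213.4, 172.6, 208.4 and 242.2 CPM on day 5 (-0.82 ± 0.31, adjusted p = 0.325, edgeR). Every day 5 library was below every day 2 library, with replicate 1 far below the rest. Spred2 and Spry1, which restrain Ras and Raf signalling, had fold changes of -1.31 ± 0.41 and -1.13 ± 0.37, and Fosl1, a Fos family factor downstream of ERK, -0.71 ± 0.27.

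Genes that respond to cyclic AMP or to acute stimulation were split. Of 20, 12 were lower and 8 higher with a median of -0.18, and at an unadjusted p under 0.05 there were 6 lower and 1 higher. At that p 6.89% of all genes were lower and 4.8% higher. Among the 6 was Per1, which the clock and glucocorticoid-induced lists hold too, so the counts of these lists are not independent. Nr4a1, an orphan nuclear receptor induced by cyclic AMP, read 38.5, 13.6, 50.4, 62.9 and 43.7 CPM on day 2 and 2.37, 25.1, 13.7, 25.1 and 14.3 CPM on day 5 (-1.37 ± 0.55, adjusted p = 0.344, edgeR). Without day 2 replicate 2, which was lowest, all day 5 libraries lay below all of day 2. Nr4a2 had a fold change of -0.79 ± 0.33 and Ier2, an immediate early gene, -0.40 ± 0.18. Fos went the other way, from 29.5, 19.99, 20.9, 17.3 and 55.0 CPM to 55.1, 58.0, 49.5, 117.3 and 34 CPM (1.14 ± 0.33, adjusted p = 0.229). The direction was thus not shared within the list.

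Among genes that make, sense or clear prostaglandin E2 none passed. Of 13 genes 6 were higher and 7 lower, with a median of -0.05, and 2 had an unadjusted p under 0.05, Ptger4 and Hpgd. That count is near the share over all genes, 11.7% in either direction. Ptger4, the gene of EP4, read 23.6, 17.4, 11.8, 19.7 and 17.7 CPM on day 2 and 29.8, 22.2, 49.4, 27.7 and 36.1 CPM on day 5 (0.88 ± 0.31, adjusted p = 0.31, edgeR). Day 5 replicate 2 overlapped day 2, and the log2 fold change was 0.48, 0.80 and 0.58 in vehicle, anti-PD-1 and EPAT tumours. Hpgd, the enzyme that inactivates prostaglandin E2, was near the detection limit on day 2, at 0.83, 2.02, 0.22, 1.74 and 0.83 CPM, and stood at 3.98, 3.34, 7.47, 9.76 and 5.75 CPM on day 5 without overlap (2.43 ± 0.69, adjusted p = 0.229). The Hpgd log2 fold change was 0.58 in vehicle, 2.43 under anti-PD-1 and 1.49 under EPAT. Ptger2, the gene of EP2, lay between 0.43 and 3.32 CPM on both days (-0.75 ± 0.46), and Ptgs2, the inducible cyclooxygenase, between 40.2 and 147.4 CPM (-0.05 ± 0.50, and -0.16 without day 2 replicate 2).

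T cell genes were higher on day 5 in all 18 tested, none passing and 4 with an unadjusted p under 0.05, against 4.8% of all genes. The list median was 0.59, and it was 0.33, with 17 of 18 higher and 2 with an unadjusted p under 0.05, when day 2 replicate 2 was left out. Over time the median was 0.07 in vehicle, 0.55 in anti-PD-1 and 0.20 in EPAT tumours. Cd8a, the co-receptor of cytotoxic T cells, read 36.6, 0.09, 14.9, 25.2 and 15.3 CPM on day 2 and 31.2, 23.4, 74.9, 52.1 and 16.9 CPM on day 5, with wide overlap (1.11 ± 0.59, adjusted p = 0.458, edgeR). Zap70, a kinase of the T cell receptor, read 8.57, 2.11, 5.92, 8.15 and 6.96 CPM and then 13.1, 10.3, 19.4, 14.01 and 8.67 CPM, the one gene of the list without overlap (1.04 ± 0.35). Cd3e and Cd8b1 had fold changes of 1.25 ± 0.51 and 1.30 ± 0.59. Pdcd1, which encodes PD-1, lay between 1.1 and 16.7 CPM on day 2 and between 5.96 and 23.98 CPM on day 5 (0.45 ± 0.49, and 0.16 without day 2 replicate 2).

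Cytotoxic effector genes were higher in 13 of 15 cases with a median of 0.69, and 0.37 without day 2 replicate 2. In vehicle and anti-PD-1 tumours all 15 were higher, with medians of 0.69 and 0.81, and under EPAT 8 were higher, median 0.05. Gzmf, a granzyme, led them, at 72.4, 2.57, 36.7, 93.8 and 69.6 CPM on day 2 and 106.5, 579.9, 118.1, 40.9 and 237.0 CPM on day 5 (1.98 ± 0.72, adjusted p = 0.316, edgeR). Its log2 fold change was 1.58 in vehicle, 1.88 under anti-PD-1 and 0.94 under EPAT. Gzmb, the classical granzyme, went the other way (-0.46 ± 0.54), with 8.49 and 15.4 CPM in day 5 replicates 1 and 5 and 42.6 to 91.0 CPM in the other day 5 libraries. Ifng read 6.57, 0, 14.1, 9.18 and 6.14 CPM on day 2 and 4.62, 28.3, 9.20, 9.13 and 6.62 CPM on day 5 (0.69 ± 0.62). The Ifng value was 0.37 without day 2 replicate 2, and over all libraries left out in turn it ran from 0.04 to 1.08. Of 18 interferon-γ response genes 13 were higher, median 0.24, and without day 2 replicate 2 the split was 9 to 9 with a median of -0.002. Tgtp1, an interferon-induced GTPase, read 76.0 and 45.5 CPM in day 5 replicates 2 and 4 and 8.29 to 16.3 CPM in the other 3, against 0.37 to 19.9 CPM on day 2. The chemokine Cxcl9 (-0.19 ± 0.44), its relative Cxcl10 (0.31 ± 0.50) and Cd274, which encodes PD-L1 (0.27 ± 0.44), had differences smaller than their SE, and without day 2 replicate 2 they stood at -0.49, 0.007 and 0.002. Gzmb stood at -0.78 without that library. Genes of MHC class I presentation were lower in 13 of 18 cases (median -0.19), and in 17 of 18 without replicate 2 (median -0.41), none passing.

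In the edgeR fit to all arms no matrix gene passed, with or without day 2 replicate 2, the day 2 library with the highest matrix level. Of 19 collagen and matrix genes 17 were higher, median 0.38, with 4 at an unadjusted p under 0.05. Without that library 18 were higher, median 0.84, with 12 at an unadjusted p under 0.05. The shares of all genes higher at that p were 4.8% and 4.95%. Col12a1, a collagen that lies along fibrils, read 128.5, 83.4, 42.6, 109.6 and 195.6 CPM on day 2 and 305.3, 195.8, 320.1, 308.2 and 251.9 CPM on day 5, without overlap (1.30 ± 0.47, adjusted p = 0.316, edgeR). Bgn, the proteoglycan biglycan, read 210.2, 455.7, 149.8, 189.2 and 226.7 CPM and then 957.6, 313.3, 697.1, 428.9 and 640.3 CPM (1.30 ± 0.53). Only day 2 replicate 2 overlapped the day 5 range. Fibroblast genes were higher in 12 of 13 cases (median 0.56, and 1.00 in 13 of 13 without replicate 2). Acta2, smooth muscle actin, read 22.96, 36.8, 8.37, 16.7 and 31.7 CPM on day 2 and 30.5, 30.4, 84.5, 156.1 and 22.02 CPM on day 5 (1.48 ± 0.57), with replicates 3 and 4 high. Endothelial genes were higher in 12 of 13 cases (median 0.50), led by Vwf, the von Willebrand factor (1.01 ± 0.37), and Cdh5, VE-cadherin (0.69 ± 0.26). No gene of these 3 lists passed in the edgeR fit to all arms. With edgeR fitted to the combination libraries alone, without day 2 replicate 2, matrix and fibroblast genes did pass. Col1a1 (adjusted p = 0.0374, edgeR), Col1a2 (adjusted p = 0.043) and Fbln1 (adjusted p = 0.0306) were then higher on day 5. That alternative was chosen after seeing the data, and with day 2 replicate 2 kept it called no gene. The other arms had positive medians too: those for matrix and fibroblast genes were 0.21 and 0.50 in vehicle, 0.61 and 1.07 under anti-PD-1, and 0.54 and 0.79 under EPAT.

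Proliferation genes were lower in 18 of 20 cases, by a small amount (median -0.25, none passing, 2 with an unadjusted p under 0.05). The count at that p is near the share over all genes, 11.7% in either direction. Cdk1, the mitotic kinase, read 199.4, 151.2, 186.1, 171.3 and 203.9 CPM on day 2 and 26.7, 145.1, 139.9, 198.0 and 87.6 CPM on day 5 (-0.61 ± 0.31), so the lowest values were those of day 5 replicates 1 and 5. The medians in vehicle, anti-PD-1 and EPAT tumours were -0.19, -0.35 and -0.39. Heat shock and chaperone genes were lower in 11 of 13 cases (median -0.13), with Hspa1a, an inducible HSP70, at -0.93 ± 0.36. Of 8 mitochondrially encoded genes 7 were lower (median -0.33), and mt-Cytb, a subunit of complex III, stood at 1382 CPM in day 5 replicate 1 against 3228 to 4023 CPM in the other day 5 libraries. Arg1, an arginase of suppressive myeloid cells, spanned 41.7 to 427.0 CPM on day 2 and 9.86 to 171.1 CPM on day 5 (-1.33 ± 0.77, and -0.68 without day 2 replicate 2). Macrophage genes had a median of 0.25 with 10 of 14 higher, and neutrophil genes one of 0.60 with 8 of 10 higher.

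Tissue other than tumour differed between libraries of both days. All 14 skeletal muscle genes were higher on day 5 (median 1.39), none with an unadjusted p under 0.05, and their summed level ran from 26.4 to 1280 CPM on day 2 and from 596 to 4963 CPM on day 5. Summed lung epithelial genes ran from 0.65 to 105.9 CPM on day 2 and from 0.39 to 85.7 CPM on day 5, and the median of the list was -0.61. The part of these tissues in the results was not tested beyond the following values. Among libraries with lung transcripts (3 on day 2, 2 on day 5) the mean log2 difference was -1.10 for Fkbp5, -0.66 for Klf9 and -1.09 for Per1. Among those without (2 and 3) it was -1.58, -1.39 and -0.96. With the muscle score as a covariate Fkbp5 still passed and Klf9 did not (adjusted p = 0.0662, edgeR). With the lung split as a covariate Fkbp5 (adjusted p = 0.00526), Klf9 (adjusted p = 0.0434) and Vps41 (adjusted p = 0.0434) passed. Summed keratinocyte genes reached 141.9 CPM in day 5 replicate 3 and at most 15.1 CPM elsewhere. Summed B and plasma cell genes ran from 4.77 to 10.3 CPM on day 2 and from 8.80 to 15.0 CPM on day 5.

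**Figure D5:**
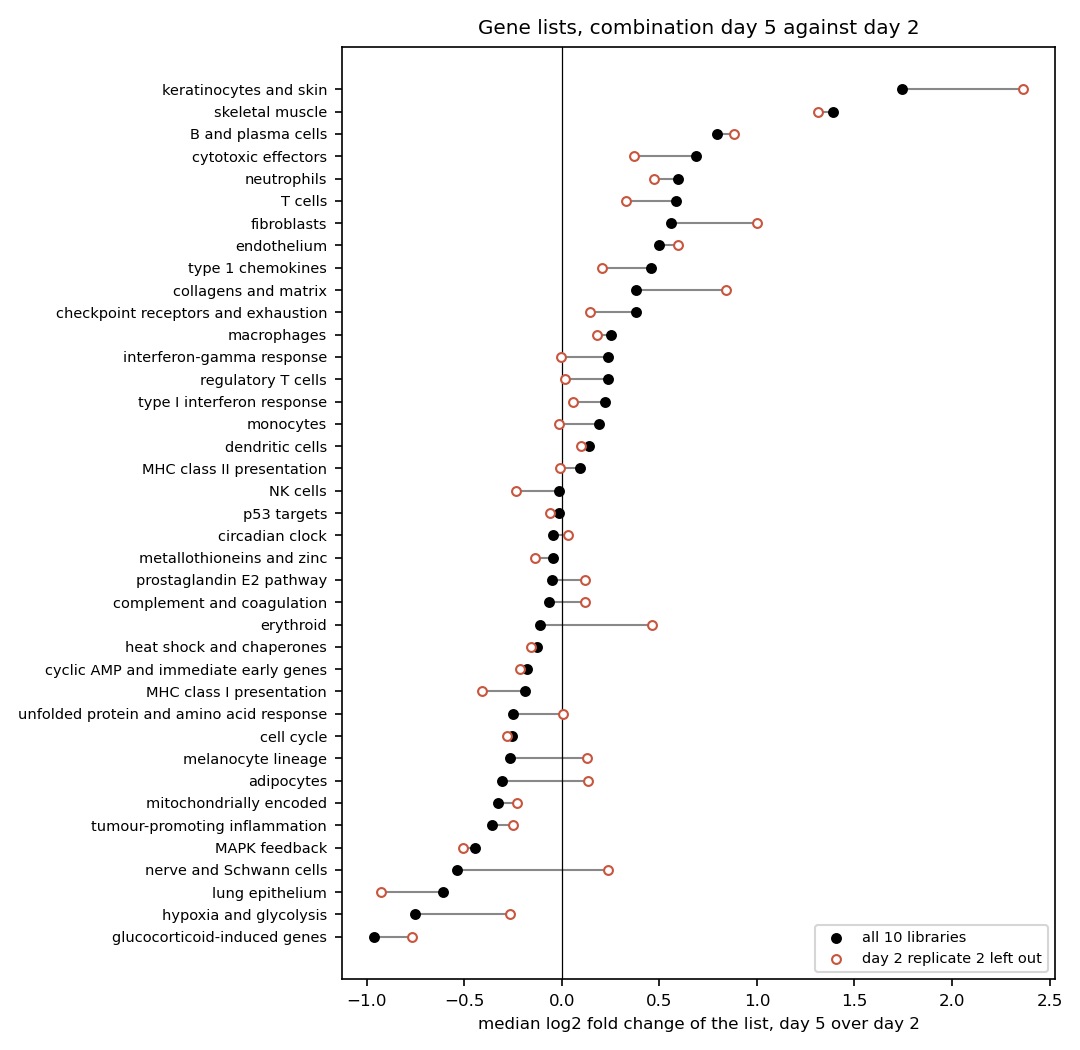
Median log2 fold change of day 5 over day 2 (x axis) of each of 39 gene lists (y axis), with all 10 combination libraries (filled) and with day 2 replicate 2 left out (open), joined by a line. The glucocorticoid-induced list has the lowest median with all libraries (-0.96), and without day 2 replicate 2 it stands at -0.77, above lung epithelium at -0.93, while the hypoxia median moves from -0.75 to -0.26 and the matrix median from 0.38 to 0.84.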

How the data were processed

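Bulk RNA of the tumours was sequenced from 500 ng of total RNA with a 3' tag kit, per the labels. The authors deposited whole-number counts per Ensembl gene, made with STAR and featureCounts per the submitters' processing notes, and a table of log2 CPM. The builds named are mm10 and GRCm38. Tool versions and whether counting used strand are not given in the sources, so reads of overlapping or near-identical genes cannot be assigned with certainty. The counts held 39179 genes. The deposited log2 values entered 1 alternative. With edgeR 4.0.16 (R 4.3.3), filterByExpr (minimum count 10, minimum total 15) kept 15070 genes. Libraries were scaled by TMM, and a robust quasi-likelihood model with 1 mean for each of 8 groups was fitted to all 39 libraries (31 residual degrees of freedom). Tests were 2-sided with Benjamini-Hochberg adjustment over all genes. Each SE was taken as the log2 fold change over the square root of F. List levels are means of log2 CPM over members, with a prior count of 2. Libraries were split by lung transcripts at the widest gap of summed Sftpc, Sftpa1 and Scgb1a1 (1.19 to 50.0 CPM). Alternatives used limma 3.58.1 and DESeq2 1.42.0. No pair of combination libraries agreed within counting noise (lowest chi-square per gene 10.7), so each counted once.

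Named genes were those passing with a mean log2 CPM of at least 1, a symbol that is no predicted or clone name, and at least 4 of 5 day 5 libraries on one side of the day 2 mean. With fewer than 5 passing in a direction, the 10 of smallest p under the other conditions were named. Up to 4 genes of smallest p from each of 39 lists, 14 drug-target and immune genes, and 5 genes of smallest p from each test between arms were added. The text gives part of these, and 1 gene is not reported here. The whole glucocorticoid-induced list is given, chosen after its values were seen. The replicate numbers did not pair the samples, so they entered 1 alternative only. The comparison, lists and rule were chosen with earlier results of these data known. On simulated counts for the combination day 5 against day 2 (15070 genes), edgeR called 65 of 100 genes changed 2-fold and 86 of 100 changed 4-fold, with 10 false calls, and DESeq2 69 and 89 with 21 false calls. These counts were drawn from edgeR's own fitted spread, with no library standing apart and no other tissue. Recovery in the real libraries can therefore differ.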

Additional observations from a re-analysis of the deposited data

Results flagged for a closer look

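In 160 sets of 5 libraries (list levels and gene levels of one day), 28 held a library whose gap to the nearest of the others exceeded 0.71 of the range. Chance passes that limit at a 5% rate where values are independent and normally distributed. CPM values are skewed and the sets are related, so the count of 28 is not read against that rate. Day 2 replicate 2 was that library in 12 of the 28, day 5 replicate 3 in 4 and day 5 replicate 1 in 3.

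In mean log2 CPM, day 2 replicate 2 was low for MHC class II presentation (7.64), cytotoxic effectors (1.41), NK cells (1.23), type 1 chemokines (2.39) and cell cycle (5.99), and high for the unfolded protein and amino acid response (5.72). Day 2 replicate 3 was low for macrophages (6.89) and skeletal muscle (0.477), and day 2 replicate 5 was high for tumour-promoting inflammation (5.44). On day 5, replicate 3 was high for MHC class II presentation (9.01) and for keratinocytes and skin (3.15), replicate 5 for the circadian clock (4.23) and replicate 2 for p53 targets (5.48), while replicate 1 was low for mitochondrially encoded genes (8.11).

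Among single genes, day 5 replicate 1 was low for Fkbp5 (15.2 CPM) and Per2 (3.23 CPM). Fkbp5 still passed without it. Day 2 replicate 2 was high for Zbtb16 (34.7 CPM), Per2 (43.2 CPM), Bhlhe40 (68.3 CPM), Ndrg1 (401.2 CPM), Ero1l (450.0 CPM) and Bgn (455.7 CPM). Fos was high in day 5 replicate 4 (117.3 CPM) and Ifng in day 5 replicate 2 (28.3 CPM). Krt5 stood apart in day 2 replicate 1 (0.166 CPM) and day 5 replicate 3 (33.7 CPM), and Krt14 in day 2 replicate 4 (0.871 CPM) and day 5 replicate 3 (58.9 CPM).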

How the results depend on the processing

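The count of 2 genes between the days became 1 to 7 when each library was left out in turn: 7 without day 5 replicate 2 or day 5 replicate 5, 2 without day 2 replicate 5, and 1 without each of the others. The count was 0 with only the 10 combination libraries, and 0 with the replicate block on those libraries, where labels' numbers did not pair the samples (0 of 5 pairs with a correlation over 0.1). It was 1 with RLE factors, with total counts, with no filter and with the muscle covariate, 3 with the lung covariate, 34 with DESeq2 and 27 with limma-voom with sample quality weights. Of 3 alternatives chosen after seeing the data, DESeq2 without day 2 replicate 2 gave 32, the combination libraries alone without it 15, and leaving out that library and day 5 replicate 1 together 1. The 15 held Fkbp5 and Per1, and also Col1a1, Col1a2 and Fbln1. For the other comparisons, 0 with edgeR, DESeq2 gave 10 in vehicle, 12 in anti-PD-1 and 6 in EPAT tumours, and 3, 3 and 17 for the combination against vehicle, anti-PD-1 and EPAT. Limma-voom gave 2 in anti-PD-1, 1168 for EPAT day 5 vs day 2, and 10 and 4 for the combination against anti-PD-1 and EPAT, and limma-trend gave 1 in vehicle. The cause was not tested. Of 86 genes, 79 kept their direction in every setting that gave them a value (6 genes with few counts had fewer settings). The exceptions were Cxcl9 (0.17 with the replicate block, 0.41 with limma-trend, -0.49 to 0.20 leaving out 1 library), Pdcd1 (-0.008 with limma-voom), Ptgs2 (0.12 with limma-voom, 0.035 with the lung covariate, -0.31 to 0.28 leaving out 1 library), Cxcl10 (-0.049 to 0.90), Krt14 (-3.08 to 6.70, the lowest without day 5 replicate 3), Errfi1 (-0.30 to 0.061) and Cdkn1a (-0.05 to 0.10), these last 4 leaving out 1 library. Genes with few counts and lists that rest on day 2 replicate 2 are the least certain here.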
